A study of Mus musculus with 8 samples.

Results

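The SLAM (signalling lymphocytic activation molecule) family was followed in the RNA-seq libraries of primary cultured mouse microglia treated with or without IgG. The genes were taken by symbol, and 7 of the 55385 genes in the count table belong to the group described here: Slamf1, Slamf7, Slamf8, Slamf9, Cd48, Cd84 and Ly9. The family was selected on the counts of these same libraries, that is, chosen by its measured difference between IgG and control, so the differences between IgG and control that follow describe its genes. They are given without a p-value for any member, and counts of members past a threshold are part of the description. Of the 7 genes, 6 had enough counts to enter the fit over 17537 genes, and Slamf1 did not.

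Microglia, the resident macrophages of the brain, were shaken off mixed cultures from the neocortices and hippocampi of newborn wild-type mice, with the cells of several brains pooled. The 4 IgG cultures received 10 µg/ml IgG for 24 h at DIV15 (day 15 in vitro), and the 4 control cultures are called untreated in the sample labels and PBS-treated in the methods of the study. Libraries that share a number also share a date in the labels, so that each control culture had an IgG partner, in 4 pairs. The question was which genes IgG changes in microglia, and no other treatment or genotype was present in any of the libraries.

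SLAM family receptors are immunoglobulin-domain proteins on the surface of blood cells, and most of them bind the same receptor on a neighbouring cell. Ligation of the longer members recruits small SH2 adaptors of the SAP and EAT-2 type through tyrosine switch motifs in the cytoplasmic tail. CD48 has no cytoplasmic tail, is held by a lipid anchor and serves as the ligand of 2B4, the product of Cd244a. Slamf8 and Slamf9 encode short-tailed members that lack the switch motif. In macrophages the family is known for effects on phagocytosis, on the NADPH oxidase and on cytokine production.

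All members lie on chromosome 1 of mm10 and all are protein coding. Ly9 (171588624 to 171607410) sits within the span of Cd244a on the opposite strand, with 0 bases of exon shared between them. Slamf7 (171632403 to 171653035), Cd48 (171682009 to 171705258), Slamf1 (171767127 to 171801184) and Cd84 (171839697 to 171890718) follow. Slamf9 (172475358 to 172478575) and Slamf8 (172581758 to 172590568) lie apart from them, beyond a stretch of unrelated genes. Of the 4577 exon bases of Slamf7, 423 (9.24%) are also exon of Gm37787 on the other strand. The same 423 bases are most of the 585 exon bases of Gm37787. Some counts of these 2 genes therefore cannot be told apart if reads were counted without strand.

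Sequences upstream of the start sites were in the RefSeq table (GRCm38.p6) for 6 of the 7 members, all but Ly9. The 250 bases before the start are shown for the member with the largest change with IgG, for the member that was lower in all pairs and for the most abundant member. Letters in capitals mark matches to the searched motifs on either strand.
Slamf9 (chr1:172475110-172475359, + strand): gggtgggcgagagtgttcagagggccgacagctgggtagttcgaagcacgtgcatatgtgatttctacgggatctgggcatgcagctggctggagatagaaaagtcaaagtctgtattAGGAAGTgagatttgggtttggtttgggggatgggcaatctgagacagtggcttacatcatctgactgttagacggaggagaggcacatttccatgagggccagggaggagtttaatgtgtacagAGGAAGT
Slamf8 (chr1:172590569-172590818, - strand): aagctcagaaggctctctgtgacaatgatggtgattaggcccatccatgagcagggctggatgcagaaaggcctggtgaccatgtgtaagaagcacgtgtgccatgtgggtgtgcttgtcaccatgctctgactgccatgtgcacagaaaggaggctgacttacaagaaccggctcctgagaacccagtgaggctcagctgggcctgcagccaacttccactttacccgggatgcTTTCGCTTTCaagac
Cd84 (chr1:171839447-171839696, + strand): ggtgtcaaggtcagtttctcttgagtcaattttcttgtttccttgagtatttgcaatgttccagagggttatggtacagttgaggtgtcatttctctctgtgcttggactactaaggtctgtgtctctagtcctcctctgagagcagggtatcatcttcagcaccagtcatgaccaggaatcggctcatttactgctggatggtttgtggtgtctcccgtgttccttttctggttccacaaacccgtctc

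The motifs searched on both strands were the ISRE type (GAAA, any 2 bases, GAAA), of the kind bound by interferon-activated complexes, TTCNNNGAA, of the kind bound by STAT dimers, and AGGAAGT, of the kind bound by ETS factors such as PU.1. The ETS-type letters were added after the values were seen. In Slamf9, AGGAAGT was found at 132 to 126 and again at 7 to 1 bases before the start site. In Slamf8, the ISRE type was found on the other strand at 15 to 6 bases before the start, as TTTCGCTTTC when read along the gene. None of the 3 patterns was present in these windows of Cd84, Cd48, Slamf1 or Slamf7, and the matches did not overlap each other. The RefSeq start of Slamf7 lies 4036 bases from its GENCODE gene start, so that its window is inside the annotated gene. Of 32851 promoter windows of the same length, 2.98% held the ISRE type, 7.02% held TTCNNNGAA and 7.69% held AGGAAGT. A match describes letters only, and the absence of a match says nothing of the factor.

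The libraries held 21287816 to 23703216 counts, so that 3 counts, the limit a count of 0 allows, correspond to 0.124 to 0.147 CPM (counts scaled to the library's TMM-corrected size). This floor covers counting error only. The mitochondrial share of counts was 4.85% in IgG library 1 and 5.59% in IgG library 3, against 1.97% to 2.41% in the other 6. The change within a pair ran along the GC content of genes, with Spearman correlations across 15668 genes, which are not independent replicates, of -0.44, -0.03, -0.44 and 0.35 in pairs 1 to 4. The defining microglial genes were present in every library, with a summed level of 5324 to 5587 CPM in control and 5497 to 6497 CPM in IgG libraries over 8 markers, although Tmem119 reached only 4.69 to 8.78 CPM. Several SLAM genes are also typical of lymphocytes, and of 8 T and NK cell markers 6 (Cd3e, Cd3d, Cd3g, Cd8a, Ncr1 and Nkg7) had 0 counts in all libraries. The summed level of these 8 was 1.38 to 3.355 CPM in control and 2.13 to 2.91 CPM in IgG libraries. It came from Klrb1c, with 24 to 61 counts per library, and Cd4, with 6 to 29. Cd4 was higher with IgG in all 4 pairs (log2 fold change 0.97, standard error 0.32), and Klrb1c in 2 (-0.13, standard error 0.35). The 5 B cell markers summed to at most 0.554 CPM in any library, and the 4 mast cell markers to at most 0.0836 CPM, with Mcpt4 and Cma1 at 0.

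In untreated microglia the family ranged from the floor of detection to the upper part of all genes in expression per length. Levels between genes are given as CPM per kb of exon. Cd84, a self-binding receptor of macrophages and other blood cells, was the most abundant member at 87.6 ± 1.78 CPM per kb (SD, n = 4). Its 4 control libraries had 89.2, 88.8, 85.3 and 87.0 CPM per kb, a level above that of 96.3% of the genes tested. Cd48, the GPI-anchored ligand, followed at 35.3 ± 5.78 CPM per kb with 39.1, 28.3, 32.9 and 40.9 in control libraries 1 to 4. The ranges of Cd84 and Cd48 did not meet.

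Ly9, Slamf9 and Slamf8 formed a middle group of like levels. Ly9 (CD229), a self-binding receptor best known from lymphocytes, had 17.3 ± 3.39 CPM per kb, Slamf9 16.4 ± 3.56 and Slamf8 13.8 ± 1.43 (SD, n = 4 each). Their order was not fixed, since Ly9 was above Slamf9 in control libraries 1, 2 and 4 and below it in library 3, while Slamf8 was above Slamf9 in library 4 alone. The ranges of these 3 genes overlapped, whereas all 3 stayed below the lowest Cd48 value.

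Slamf7, known as a receptor on NK cells, plasma cells and activated macrophages, had 0.834 ± 0.225 CPM per kb, from 0.536 to 1.05. Slamf1, the founding member and an activation receptor of lymphocytes and macrophages, had only 2 to 7 counts in the control libraries and 2 to 13 in the IgG libraries. The mean CPM was 0.174 ± 0.101 without and 0.336 ± 0.215 with IgG (SD, n = 4 each), near the floor, and at this depth no difference was detectable. Its counts were higher in pairs 1 and 3 and lower in pairs 2 and 4. The plot of levels in the control cultures gives the whole order.

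**Figure D1:**
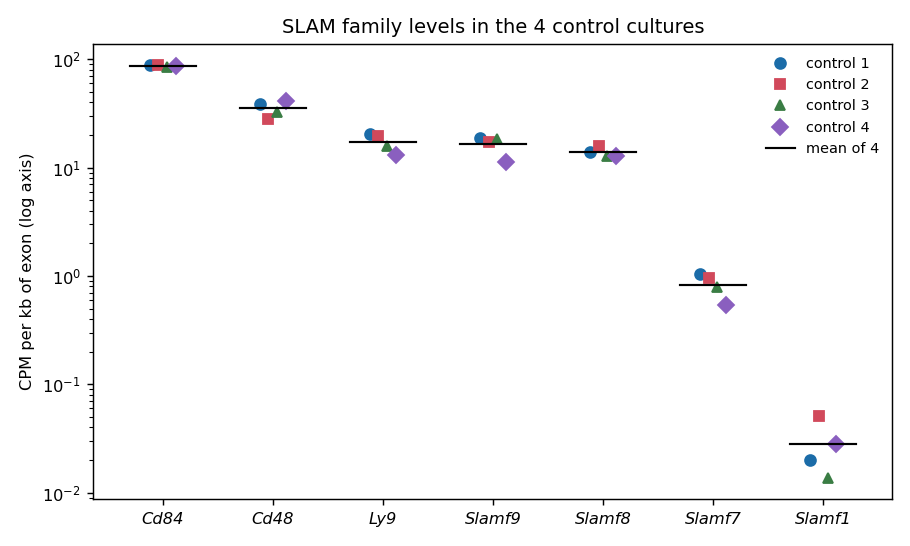
Level of each SLAM family gene in the 4 control cultures, in CPM per kb of exon on a log axis, with 1 point per library and a bar at the mean. Cd84 lies highest at 85.3 to 89.2, Ly9, Slamf9 and Slamf8 share a range, and Slamf1 lies at 0.0136 to 0.0512.

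The members also differed in how much the untreated cultures varied among dates. Cd84 was the steadiest, with a highest control library only 1.05 times the lowest. Its SD on the log2 scale was below that of all but 6.84% of the 190 tested genes of like level. By contrast, Slamf7 varied 1.96-fold, Slamf9 1.67-fold and Ly9 1.56-fold between control libraries. The SD of Ly9 exceeded that of 97.1% of 2391 genes of like level and that of Slamf9 96.9% of 2627. Control library 4 had the lowest level of Slamf9, Ly9, Slamf8 and Slamf7, but the highest level of Cd48.

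With IgG, Slamf9 had the largest difference of the family, in the direction of higher levels. The protein is a short-tailed receptor of macrophages and dendritic cells. Its level was 24.5, 22.8, 24.3 and 14.7 CPM in control libraries 1 to 4 and 91.9, 48.1, 86.8 and 35.9 CPM in IgG libraries 1 to 4. The lowest IgG value exceeded the highest control value, and libraries 1 and 3 of the IgG group were the highest. The means were 21.6 ± 4.67 and 65.7 ± 27.9 CPM (SD, n = 4 each), a ratio of 3.04. The log2 fold change fitted with the pairs as a block was 1.53 (standard error 0.15), and the changes within pairs 1 to 4 were 1.90, 1.07, 1.83 and 1.29. Pairs 1 and 3, which have the raised mitochondrial share, were thus above pairs 2 and 4. In pairs 2 and 4 alone the log2 fold change was 1.18, and after removal of the trends on gene length and GC content it was 1.58.

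Ly9 was next in the fit with the block, and was higher with IgG in all pairs. Control libraries 1 to 4 had 67.3, 64.9, 52.9 and 43.1 CPM and IgG libraries 1 to 4 had 117, 86.1, 97.8 and 63.7 CPM. The groups overlapped, because the fourth IgG library was below the first and second control libraries, while each IgG library was above its own control. The log2 fold change was 0.66 (standard error 0.11), with 0.80, 0.41, 0.89 and 0.56 within pairs 1 to 4. It was 0.48 in pairs 2 and 4 alone. With the length and GC correction it remained at 0.66. Slamf7 was above Ly9 without the block (0.79 against 0.68) and in limma-voom (0.71 against 0.67).

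Cd48 was also higher in all 4 pairs, but by a small amount in pairs 2 and 4. It had 46.4, 33.7, 39.1 and 48.6 CPM in control libraries 1 to 4, and 69.9, 36.2, 66.6 and 51.6 CPM in IgG libraries 1 to 4. The groups overlapped, and the increase was seen mainly in IgG libraries 1 and 3. The log2 fold change was 0.39 (standard error 0.13), with 0.59, 0.11, 0.77 and 0.09 within the pairs. In pairs 2 and 4 alone it was 0.10.

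Slamf7 and Cd84 had no common direction. Slamf7 had 4.81, 4.37, 3.64 and 2.45 CPM in control and 12.7, 3.47, 7.60 and 2.59 CPM in IgG libraries 1 to 4. Its changes within the pairs were 1.39, -0.32, 1.04 and 0.08, so that the fitted log2 fold change of 0.61 (standard error 0.29) rested on pairs 1 and 3 and was -0.14 in pairs 2 and 4 alone. Gm37787, the transcript that shares exon bases with it, had a fold change of 1.24 on the log2 scale (standard error 0.46). Its changes within pairs 1 to 4 were 2.65, 0.39, 1.00 and 0.29, and the fitted value was as low as 0.66 with 1 pair left out.

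Cd84 had 559, 557, 535 and 546 CPM in the control and 759, 550, 738 and 462 CPM in the IgG libraries. While the control libraries were nearly alike, the IgG libraries spread to both sides of them, with libraries 1 and 3 above and library 4 below. The log2 fold change was 0.16 (standard error 0.14), and it was -0.13 in pairs 2 and 4 alone. With the length and GC correction the changes within the pairs shrank from 0.44, -0.02, 0.46 and -0.24 to 0.16, -0.03, 0.16 and -0.02. Cd84 (41.6% GC) and Cd48 (41.4%) have the lowest GC content of the 6 tested members. In Cd48 the corrected changes were 0.50, 0.08, 0.69 and 0.09, and in Slamf7 1.28, -0.32, 0.93 and 0.14.

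Slamf8, which encodes a short-tailed receptor that restrains the NADPH oxidase of macrophages, was the only tested member with a lower level in all 4 pairs. It had 42.8, 48.6, 39.6 and 39.0 CPM in control libraries 1 to 4 and 39.95, 38.9, 33.3 and 37.0 CPM in IgG libraries 1 to 4. The groups overlapped and the difference was small, with a fitted log2 value of -0.19 (standard error 0.09) and changes of -0.10, -0.32, -0.25 and -0.08 within the pairs. Slamf8 and Slamf9, both short-tailed and next to each other among the members, thus differed in direction in every pair.

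**Figure D2:**
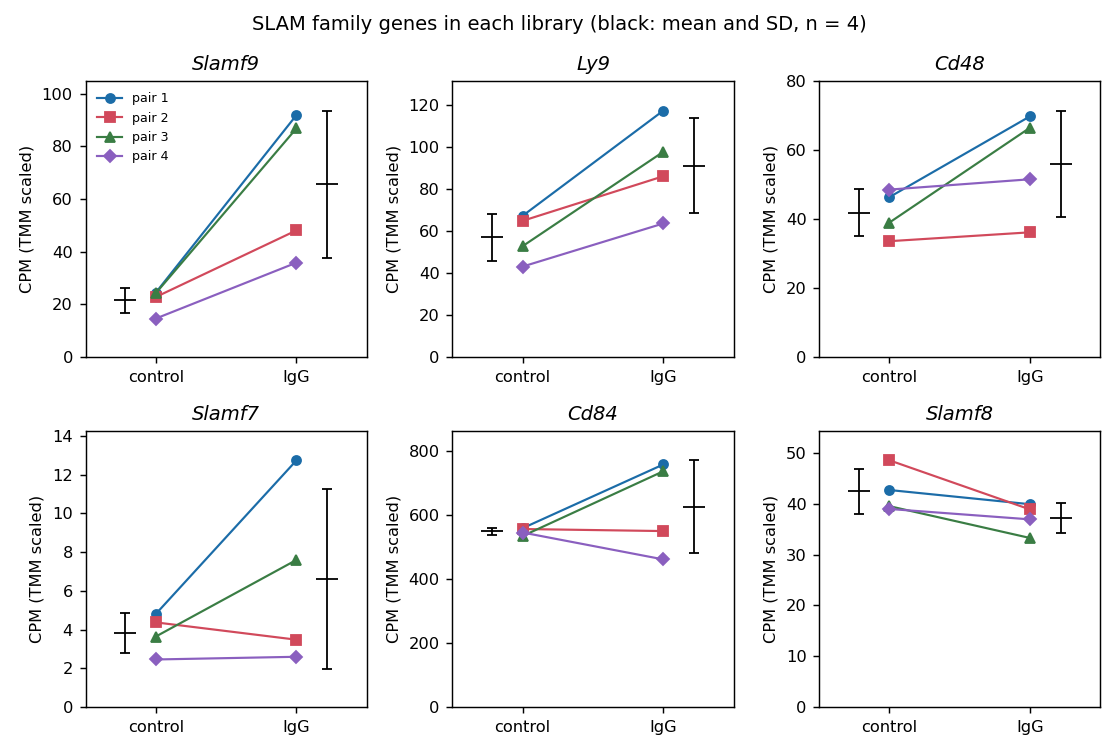
CPM of the 6 tested SLAM genes in each control and IgG library, with a line joining the 2 libraries of a pair and black bars for mean and SD (n = 4). The Slamf9 groups do not overlap, Ly9 and Cd48 lines all go up, Slamf8 lines all go down, the IgG libraries of Cd84 spread to both sides of the controls, and those of Slamf7 lie within or above them.

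**Figure D3:**
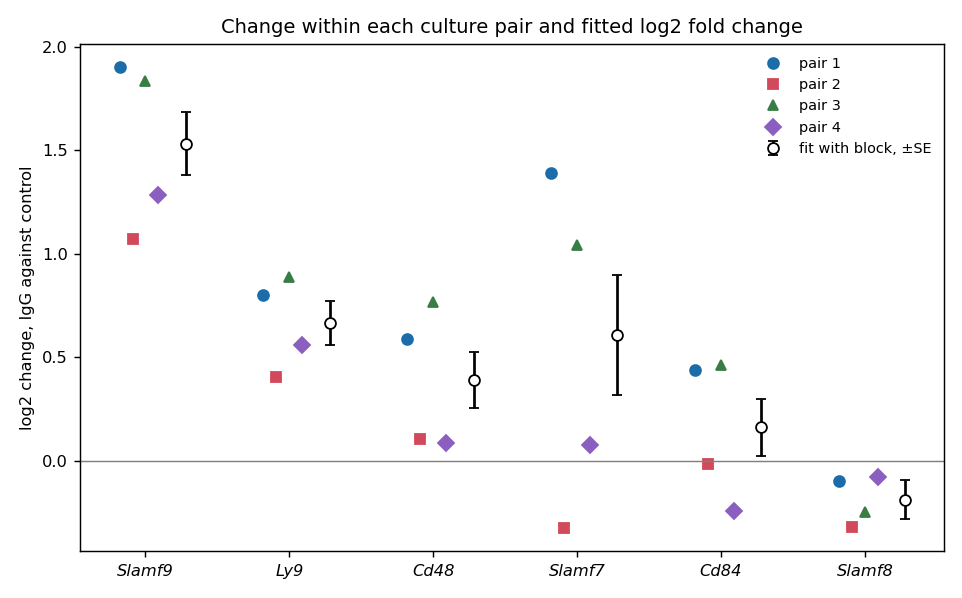
Log2 change of each tested SLAM gene within pairs 1 to 4 (coloured symbols) and the fitted log2 fold change with its standard error (open circles). Pairs 1 and 3 lie above pairs 2 and 4 for Slamf9, Ly9, Cd48, Slamf7 and Cd84.

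Of the 6 tested members, 2 (Slamf9 and Ly9) met the criterion of the study (p below 0.01 before adjustment, with a log2 fold change beyond 0.5 either way), both of them higher. The same criterion held for 1.82% of all tested genes, 1.48% in the direction of higher levels and 0.342% in the other. Without the pairing as a block the same 2 members met it, against 0.844% of all genes, 0.582% higher and 0.262% lower. After adjustment over all genes with the block, 1 member (Slamf9) was under 0.05, as were 0.393% of all genes, all of them higher. Without the block 0 members and 0 genes were under 0.05 in edgeR's quasi-likelihood test, where 1230 genes had an unadjusted p-value under 0.05. Higher in all 4 pairs were 3 members, against 10.4% of all genes, and lower in all 4 pairs was 1, against 8.47%. Groups did not overlap for 1 member, higher, against 2.6% of all genes higher and 1.57% lower. The family's median log2 fold change was 0.50, beside -0.0051 over all genes tested, and the medians of its changes within pairs 1 to 4 were 0.69, 0.045, 0.83 and 0.082. Since the family was chosen with this contrast known, nothing is read from these counts.

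The make-up of the family, as the share of each gene in the summed CPM per kb of a library, does not depend on how libraries are scaled. Slamf9 made up 10.2%, 10.2%, 11.1% and 6.76% of the family in control libraries 1 to 4. In IgG libraries 1 to 4 its share was 23.2%, 18.9%, 23.5% and 15.5%, above every control library. The share of Cd84 went the other way, from 51.2 ± 1.60% in control to 42.2 ± 2.09% in IgG libraries (SD, n = 4 each), also with no overlap. Slamf8 took 8.06 ± 0.785% in control and 5.37 ± 1.51% in IgG libraries. The shares of Cd48 (20.6 ± 3.40% and 19.9 ± 3.67%) and of Ly9 (10.0 ± 1.65% and 11.7 ± 1.28%) overlapped between the groups. A share rises or falls with the other members, so that a lower share of Cd84 is not a lower level of its RNA. In bulk RNA, fewer cells of a type and less RNA per cell cannot be told apart.

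Other family genes, adaptors and signalling genes were taken from a list of 34 genes, of which 30 were tested. Cd244a, which encodes the 2B4 receptor for CD48, averaged 10.7 ± 2.39 CPM without and 15.2 ± 3.91 CPM with IgG (SD, n = 4 each). All 4 pairs went up, by 0.50 in the fit (log2, standard error 0.13), but the Benjamini-Hochberg adjusted p from edgeR's quasi-likelihood fit over all genes was 0.289. Slamf6, a self-binding receptor of lymphocytes, had 3.03 ± 0.0770 and 3.45 ± 1.11 CPM. It was higher in pairs 1 and 3 and lower in pairs 2 and 4, the same pairs as Cd84. Its log2 fold change was 0.15 (standard error 0.22, edgeR adjusted p = 0.818).

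The SH2 adaptors through which the long-tailed receptors signal were barely detected. Sh2d1a, which encodes SAP, had 0 to 2 counts per library. Sh2d1b1 and Sh2d1b2, the EAT-2 genes, had 6 to 16 and 0 to 6 counts. Cd2, a related receptor of T cells that binds CD48, had 1 count in the third IgG library and 0 in the other 7. None of these 4 passed the filter, and for Sh2d1a, Sh2d1b2 and Cd2 the counts were near the floor of 3, so that no fold change is given.

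The kinases and phosphatases reported around SLAM tails were by contrast abundant. The tyrosine kinase gene Lyn averaged 197 ± 20.7 CPM without and 261 ± 49.3 CPM with IgG, a fitted log2 difference of 0.39 (standard error 0.09, edgeR adjusted p = 0.202), and was higher in all 4 pairs. Fyn, the kinase that SAP recruits in lymphocytes, had 68.2 ± 2.16 and 62.2 ± 4.49 CPM (log2 fold change -0.13, standard error 0.09). Csk, which encodes a kinase that inhibits Src family kinases, was at 0.18 on the same log2 scale (standard error 0.09). The phosphatase genes Inpp5d (SHIP1), Ptpn6 (SHP-1) and Ptpn11 (SHP-2) had 0.27, 0.22 and 0.02 (standard errors 0.10, 0.10 and 0.09). By quasi-likelihood in edgeR none of these 6 passed adjustment at 0.05, whereas by its likelihood ratio test Lyn did, at an adjusted p of 0.0446. Ptpn11 turned to -0.08 with scaling by total counts only. Under that scaling Lyn was at 0.29, Fyn at -0.23, Csk at 0.08, Inpp5d at 0.17 and Ptpn6 at 0.12.

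Of the 30 tested genes, 1 rose past adjustment over all genes at 0.05, beside 0.393% of all genes, and 0 fell, beside 0%. This gene was Rac2, which encodes a GTPase of haematopoietic cells that activates the phagocyte NADPH oxidase. Rac2 had 272, 259, 241 and 229 CPM in control and 454, 352, 414 and 351 CPM in IgG libraries 1 to 4, and the groups did not overlap. Its log2 fold change was 0.64 (standard error 0.10, edgeR adjusted p = 0.0381 with the block and 0.373 without it). The edgeR adjusted p-value was 0.219, 0.200 and 0.239 when pair 1, 2 or 3 was left out and 0.0601 with scaling by total counts only. The adjusted p was 1.29e-05 in edgeR's likelihood ratio test, 3.5e-05 in DESeq2 and 0.032 in limma-voom. With the length and GC correction it was 0.0155, and without pair 4 Rac2 was also under 0.05. The study's criterion was met by Rac2 alone, with 0 lower genes, beside 1.48% and 0.342% of all genes. An unadjusted p-value under 0.05 was found for 8 higher genes and 1 lower gene, beside 6.35% and 3.85% of all genes. Groups did not overlap for 5 of the 30, beside 2.6% of all genes. Besides Rac2 these were Ptpn6, Vav1 (a Rac exchange factor), Fcer1g (the Fc receptor γ chain) and Ncf1 (p47phox of the NADPH oxidase), the last 3 named after their values were seen. Their log2 fold changes were 0.22, 0.30, 0.42 and 0.27. For Fcer1g the adjusted p was 0.209 in edgeR's quasi-likelihood test and 0.0359 in that test without a filter. It was 0.0390 in edgeR's likelihood ratio test and 0.0486 in DESeq2. The median over the 30 genes was 0.097, beside -0.0051 over all genes, and it was -0.0040 with scaling by total counts only, which moves the median of all genes to -0.105. The list was chosen with earlier results of these data known, so nothing is read from its counts or its median.

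**Figure D4:**
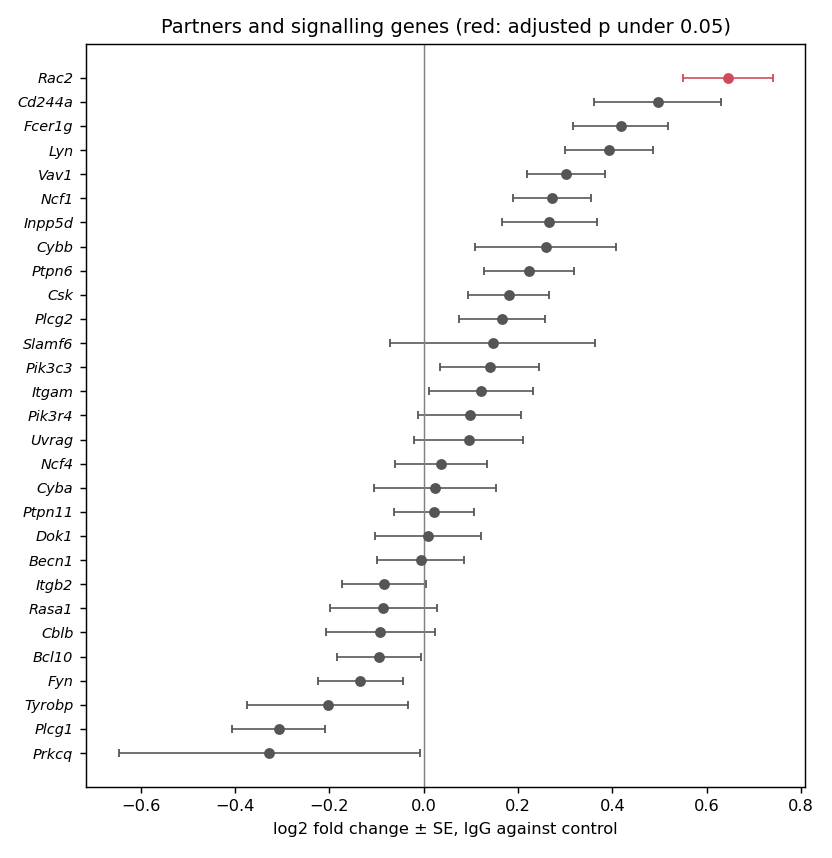
Log2 fold change and standard error of the tested partner and signalling genes, with 1 of the 30 not shown, sorted by value, with genes under an adjusted p of 0.05 in red. Rac2, at 0.64, is the red point, and Ptpn11, Dok1 and Becn1 lie near 0.

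The chromosomal interval that holds the family, from Cd244a to Slamf8, contains 40 further genes, of which 20 were tested. None of these 20 met the study's criterion in the direction of higher (1.48% of all genes) or lower levels (0.342%), and 0 were under an adjusted p of 0.05 in edgeR's quasi-likelihood test, with 1 higher and 1 lower at an unadjusted p-value under 0.05, beside 6.35% and 3.85% of all genes. Their median log2 fold change was -0.0038, with medians of -0.01, -0.02, -0.03 and -0.04 in pairs 1 to 4. The nearest tested neighbours of Slamf9 on either side, Pigm and Igsf9, chosen after their values were seen, had log2 fold changes of 0.11 and 0.05 (standard errors 0.10 and 0.22). With 1 pair left out Pigm was at 0.03 to 0.16 and Igsf9 at -0.13 to 0.19. With the length and GC correction they were at 0.02 and 0.14. Whether family genes differ from their neighbours was not tested, because the family was chosen with these changes known.

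**Figure D5:**
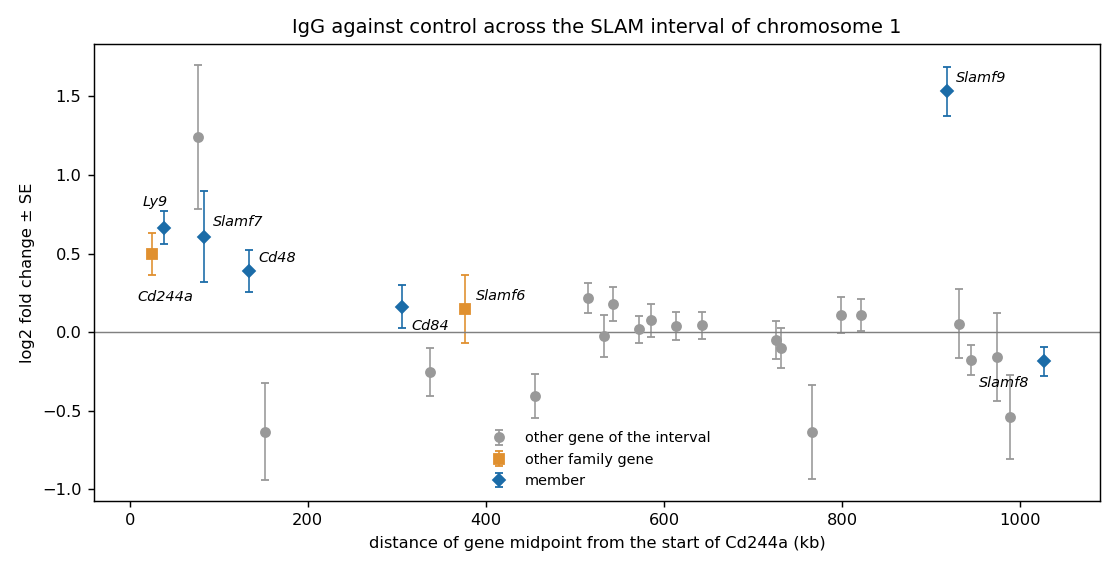
Log2 fold change and standard error of every tested gene of the interval against the distance of its midpoint from the start of Cd244a, in kb. Slamf9 lies at 1.53 while its nearest tested neighbours lie at 0.11 and 0.05. Cd244a, Ly9, Slamf7 and Cd48 lie at 0.39 to 0.66 near the other end, where the neighbour Gm37787 lies at 1.24. Most exon bases of Gm37787 are shared with Slamf7.

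The genes whose levels followed each member most closely over the 8 libraries are given as a description, since IgG and the pair-specific shifts are shared by all of them. For Slamf9 these were Adgre1 (F4/80, a macrophage surface receptor), Aoah (a lipase that inactivates endotoxin) and Tmsb4x, with Pearson correlations of log2 CPM of 0.99 each and log2 fold changes of 0.99, 1.05 and 0.52. For Ly9 they were Clec4a3 (0.99), Nucks1 (0.99) and Clec4a2 (0.99), with log2 fold changes of 0.86, 0.17 and 1.09, Clec4a3 and Clec4a2 being C-type lectin genes. For Cd84 they were Ap3b1 (0.999), Uba6 (0.999) and Golph3 (0.998), with log2 fold changes of 0.14 to 0.25. For Cd48 they were Ggnbp1, Emilin2 and Bak1 (0.97 to 0.98), for Slamf7 Arhgap10, Zfp759 and Tent2 (0.98 to 0.99), and for Slamf8 Ptpn23, Zfp251 and Rras2 (0.94 to 0.97). Among the members themselves, Slamf9 followed Ly9 most closely (0.95) and Slamf7 followed Cd84 (0.92), while Slamf8 had negative values with the other tested members, from -0.63 with Cd48 to near none with Slamf7 (-0.07).

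The ranges of the summed marker levels overlapped between control and IgG libraries for every cell type examined, but within pairs some sums moved in 1 direction. Microglial sums were higher with IgG in all 4 pairs, and oligodendrocyte and neuronal sums were lower in all 4, under TMM and under total-count scaling alike. For oligodendrocyte markers they were 1067, 1658, 1094 and 1464 CPM in control and 897, 1565, 901 and 1430 CPM in IgG libraries 1 to 4. Astrocyte sums were lower in 3 pairs, and in all 4 under total-count scaling. Border-associated macrophage markers (5 genes) summed to 56.6 to 81.9 CPM in control and 51.5 to 108 CPM in IgG libraries. Most of this sum was Mrc1, at 50.5 to 74.9 CPM in control and 42.6 to 101 CPM in IgG libraries. Pf4 had 4.43 to 7.82 CPM over all libraries, while Cd163 had no more than 0.135 CPM and Lyve1 no more than 0.225 CPM. Of these 5 genes, Cbr2 met the criterion at a log2 fold change of 1.23 from 0.258 to 1.201 CPM in the control libraries. Cbr2 did not pass adjustment over all genes in edgeR's quasi-likelihood test (adjusted p = 0.220), while its adjusted p was 0.0113 in edgeR's likelihood ratio test. Dendritic cell markers (5 genes) summed to 2.61 to 4.39 and 2.91 to 4.08 CPM. Astrocyte markers (5 genes) summed to 94.7 to 110 and 89.2 to 104 CPM, neuronal markers (5 genes) to 21.0 to 27.7 and 13.7 to 24.9 CPM and fibroblast markers (5 genes) to 7.49 to 17.6 and 7.71 to 14.2 CPM. Of the microglial markers Aif1 (Iba1) rose, with a log2 fold change of 0.69 (edgeR adjusted p = 0.0331 with the block and 0.615 without it, 0.119, 0.263 and 0.117 without pair 1, 2 or 3, and 0.112 under total-count scaling). Trem2, also a microglial marker, was higher with IgG in only 1 pair, with a log2 fold change of -0.135 (standard error 0.135). The part of these cells and of the mitochondrial share in the SLAM values was not tested.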

How the data were processed

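RNA-seq counts of 4 control and 4 IgG libraries were used. The deposited counts are whole numbers per Ensembl gene, not normalized, which the authors made from reads cleaned of adapters and low-quality bases and aligned to mm10 with HISAT2 (version 2.2.1 in the submitters' processing notes, which also name featureCounts). Annotation, strand and treatment of multiply aligned reads are not given in the sources used here. GENCODE M21 supplied symbols for 55144 of the 55385 genes, coordinates, exon lengths and GC content.

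Counts were TMM-scaled, filtered with filterByExpr (17537 genes) and fitted in edgeR 4.0.16 (R 4.3.3) by quasi-likelihood, with group and replicate number as terms and Benjamini-Hochberg adjustment. A standard error is the log2 fold change divided by the root of F. Log2 CPM used a prior count of 2. The labels give same-numbered libraries the same date, and their deviations from group means correlated at 0.41, 0.33, 0.26 and 0.32 over 15668 genes, against -0.34 to 0.20 for other numbers. No library pair within a group agreed within sampling noise (chi-square per degree of freedom of at least 5.00). The value was 5.00 to 17.6 between control libraries. In the IgG group it was 6.59 between libraries 1 and 3 and 26.9 between 2 and 4, but 65.3 to 121 for 1 or 3 against 2 or 4. Nothing says whether the cultures of a pair came from separate animals. P-values with the block set the mean change with IgG against the spread of the changes within these pairs. Those without the block use the spread between libraries of a group.

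Members and lists were chosen with earlier results of these data known. Named were all members, a set of family, adaptor, kinase and phosphatase genes given whatever their values, list, marker or neighbouring genes past a threshold, and the 3 genes most correlated with each tested member. Counts were simulated for 17537 genes with 200 changed and culture differences added, and 17313 genes entered each fit. The test with the block recovered 99% with 7 false calls, and the test without it 69.5% with 0 false calls. Whether these rates hold for the measured libraries and for the size of the changes in the members was not tested. Alternatives were no block, other scalings and filters, the likelihood ratio test, DESeq2 1.42.0, limma-voom (limma 3.58.1), a lowess correction (span 0.3) for length and GC content, and leaving out each pair. Leaving out a single library leaves its partner uninformative in this fit, so pairs were left out. The fit to pairs 2 and 4 alone was added after the data were seen. Protein sequences were not analysed here. Values of some single list genes are not reported here.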

Additional observations from a re-analysis of the deposited data

Results flagged for a closer look

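Slamf9 in control library 4, at 14.7 CPM, lay below the other control libraries. On the log2 CPM scale its gap to the nearest of them was 0.861 of the range of the group, above the 95% critical value of Dixon's test for 4 values, 0.829. On the CPM scale the gap was 0.829 of the range, at the critical value itself, so that the case is borderline. Of the 24 sets of 4 log2 values looked at this was the only such case, and chance gives about 1 in 20. The IgG library of the same pair, at 35.9 CPM, was also the lowest of its group. Without pair 4 the log2 fold change of Slamf9 was 1.60, beside 1.53 with all pairs.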

How the results depend on the processing

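Over 14 alternatives the log2 fold change of Slamf9 was 1.18 to 1.68, of Ly9 0.48 to 0.75, of Cd48 0.10 to 0.48 and of Slamf8 -0.29 to -0.14. Slamf7 (-0.14 to 0.91) and Cd84 (-0.13 to 0.28) changed sign with pairs 2 and 4 alone. Counts of genes past a threshold depended more on the setting, and the causes were not tested. Without the replicate block, 148 genes in all met the criterion and 0 were under an adjusted p of 0.05 (1230 at an unadjusted p under 0.05), including 0 members and 0 list genes, and the median of the neighbours was 0.0092. The block gave 320 and 69 genes. With total counts alone, 37 genes were under an adjusted p of 0.05, with 0 list genes, the higher share of genes past the criterion went from 81.2% to 55.1%, 1 neighbour (Vangl2) met the criterion, the list and neighbour medians were -0.0040 and -0.10, and Cd84 in control was 90.7 CPM per kb. Without a filter, 648 genes met the criterion (57.7% higher) and 376 were under an adjusted p of 0.05, with 2 members and 2 list genes, while 3 members (Slamf7 added) and 2 neighbours met the criterion, with a neighbour median of -0.050. With 10 counts in every library that median was -0.054. By the likelihood ratio test 528 genes (65.7% higher) met the criterion, among them 1 neighbour, and 327 were under an adjusted p of 0.05, among them 2 members and 3 list genes. DESeq2 gave 233 genes under an adjusted p of 0.05, with 2 members and 2 list genes, limma-voom 88 genes under it with 2 members and 337 past the criterion with 2 list genes, and the length and GC correction 221 genes and 2 members. The second member in these counts was Ly9.

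With 1 pair left out, 215 to 762 genes met the criterion and 0 to 182 were under an adjusted p of 0.05. The 0 arose without pair 2 and the 762 without pair 4, where the higher share was 56.0%. Under an adjusted p of 0.05 were 0 to 2 members and 0 to 1 list genes, and the criterion was met by 1 to 2 list genes and 0 to 1 neighbours, whose median was -0.079 to 0.0085. With pairs 2 and 4 alone, which leaves 2 libraries a group, 190 genes were under an adjusted p of 0.05 (63.3% of those past the criterion higher), 1 member (Slamf9) met the criterion and the neighbour median was -0.018. Ptpn11 was -0.079 with total counts alone, -0.0069 with 10 counts in every library, -0.034 with pairs 2 and 4 alone and -0.019 (without replicate 1) to 0.034 with 1 pair left out. Slamf6 was -0.0085 (without replicate 3) to 0.32 with 1 pair left out and -0.27 with pairs 2 and 4 alone. Depth limits Slamf1, the adaptor genes and Cd2, with few counts in every library.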
